A study of Sus scrofa with 8 samples.

Results

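The thioredoxin and glutathione systems, with the superoxide dismutases, catalase, quinone reductases and heme oxygenases, were followed in cultured muscle cells of pigs. Genes were taken by the start of their symbol: GPX, PRDX, TXN, SOD, GST, MGST, GCLC, GCLM, GLRX, NQO and HMOX, and the single genes GSR and CAT. This gave 49 of the 25285 genes in the expression table, and no symbol occurred more than once among them. The 49 lie on 16 chromosomes of the build Sscrofa10.2, apart from 4 on unplaced scaffolds.

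RNA was sequenced from primary cells of skeletal muscle of LYD pigs, the strain name the labels give. The groups were differentiated female, differentiated male, undifferentiated female and undifferentiated male cells, with 2 libraries each; the protocol calls the cells MuSCs, and the labels name no medium, agent or time for differentiation and no other treatment. Levels are FPKM, in which the fragments of a gene are divided by its length and by the mapped total of its library, so levels of different genes can be set side by side per length. The labels give neither the age of the pigs nor whether replicates came from separate animals, so the p-values below measure only the spread between these libraries, which may be technical.

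Thioredoxin is a small protein that reduces disulfide bonds in other proteins and hands electrons to peroxiredoxins, which break down hydrogen peroxide; thioredoxin reductase recharges it with NADPH. Glutathione, a tripeptide made by glutamate-cysteine ligase and glutathione synthetase, serves glutathione peroxidases, glutaredoxins and glutathione S-transferases, and is recharged by glutathione reductase, also with NADPH. Superoxide dismutases turn superoxide into hydrogen peroxide, which catalase also removes. Several of these genes are known from human and mouse cells as targets of NRF2, a transcription factor that KEAP1 keeps low until oxidants or electrophiles modify it. Muscle fibres produce oxidants when they contract, and these enzymes are known there as protection and as part of signalling.

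The labels were checked against marker genes of 9 cell types or states, as sums of FPKM per library. Of 10 skeletal muscle markers, 8 had a row in the table (PAX7 and MYF5 were not analysed here), and their sum was 13015 to 19195 in differentiated libraries and 424 to 743 in undifferentiated ones. Of these 8, 7 rose and MYOD1 fell, with a mean of 94.8 FPKM in differentiated and 184 FPKM in undifferentiated libraries. All 10 cell cycle markers in the table fell, with sums of 48.2 to 127 in differentiated libraries and 338 to 511 in undifferentiated ones. Fibroblast markers (7 of 8 in the table) summed to 431 to 1131 in differentiated and 107 to 321 in undifferentiated libraries, and the 6 smooth muscle and pericyte markers to 1020 to 1220 in differentiated and 17.5 to 40.1 in undifferentiated libraries. A few genes made up most of these sums in differentiated libraries. COL1A1 and COL3A1 rose while PDGFRA, DCN and LUM did not pass. ACTA2 was at 993 to 1166 FPKM in differentiated and 8.47 to 26.1 FPKM in undifferentiated libraries. All 4 tested smooth muscle and pericyte markers rose. Besides ACTA2 these were CNN1 (mean 4.18 FPKM differentiated, 0.248 FPKM undifferentiated), CSPG4 (3.93 FPKM differentiated, 0.617 FPKM undifferentiated) and PDGFRB (21.5 FPKM differentiated, 8.84 FPKM undifferentiated). MYH11, a defining gene of smooth muscle, reached at most 0.0931 FPKM in any library. Leukocyte markers (7 of 7) summed to 3.02 to 4.40 in differentiated and 12.2 to 17.0 in undifferentiated libraries, and endothelial markers (5 of 6) to 10.2 to 15.9 in differentiated and 14.0 to 16.1 in undifferentiated libraries. Low sums were also found for Schwann cells (4 of 5 markers; 2.34 to 3.68 differentiated, 4.30 to 7.21 undifferentiated), adipocytes (3 of 6; 2.65 to 5.09 differentiated, 2.20 to 2.69 undifferentiated) and erythroid cells (5 of 6; 0.13 to 2.22 differentiated, 0.19 to 0.64 undifferentiated). Of the leukocyte markers, LYZ was listed at 0 in all 8 libraries and PTPRC reached at most 0.199 FPKM; CD14 was at 1.74 to 2.46 FPKM in differentiated and 11.5 to 15.2 FPKM in undifferentiated libraries. HBM and AHSP, of the erythroid list, were listed at 0 throughout. The part of these shifts in the results below was not tested, and in bulk RNA fewer cells of a type and less RNA per cell cannot be told apart.

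Transcripts of the redox enzymes were lower in differentiated cells for 19 genes and higher for 1. The test was limma on log2(FPKM + 1) with 1 mean per sex and state, over the 12963 genes that averaged at least 1 FPKM over the libraries, and a gene is said to have risen or fallen where the p adjusted over all of them was under 0.05. Of the 49 redox genes 45 reached that level. GSTA4 rose, 19 genes fell and 25 did not pass, so 44.4% passed, where 50.0% of all tested genes did; 2.2% rose, where 18.0% of all genes did, and 42.2% fell, where 31.9% of all genes did. The median log2 fold change was -0.43 for the redox genes and -0.18 for all tested genes, and 29 of the 45 lay below the median of all genes. In 14 of the 45 (31.1%) all 4 differentiated libraries lay below all 4 undifferentiated ones, where 30.2% of all genes did so, and in 1 (2.2%) they lay above, where 17.1% of all genes did.

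These counts depended on how the libraries were scaled. With median-ratio scaling, which moved the median of all tested genes by 0.20 to 0.02, 5 of 45 redox genes rose and 10 fell. Of all 12963 tested genes, 3220 rose and 2920 fell under this scaling. Among the redox genes that passed 33.3% rose, against 5.0% on the deposited scale. Among all genes that passed the share was 52.4%, against 36.1% on the deposited scale. Quantile normalization, which moved that median by 0.11, gave 3 that rose and 15 that fell. Of the redox genes that passed 16.7% then rose, where 45.0% of all genes that passed did. The 10 that fell under median-ratio scaling were TXN, PRDX1, PRDX4, PRDX6, HMOX1, HMOX2, NQO1, MGST2, MGST3 and TXNDC17, and the 5 that rose were GSTA4, CAT, TXNDC9, TXNIP and TXNL1.

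**Figure D1:**
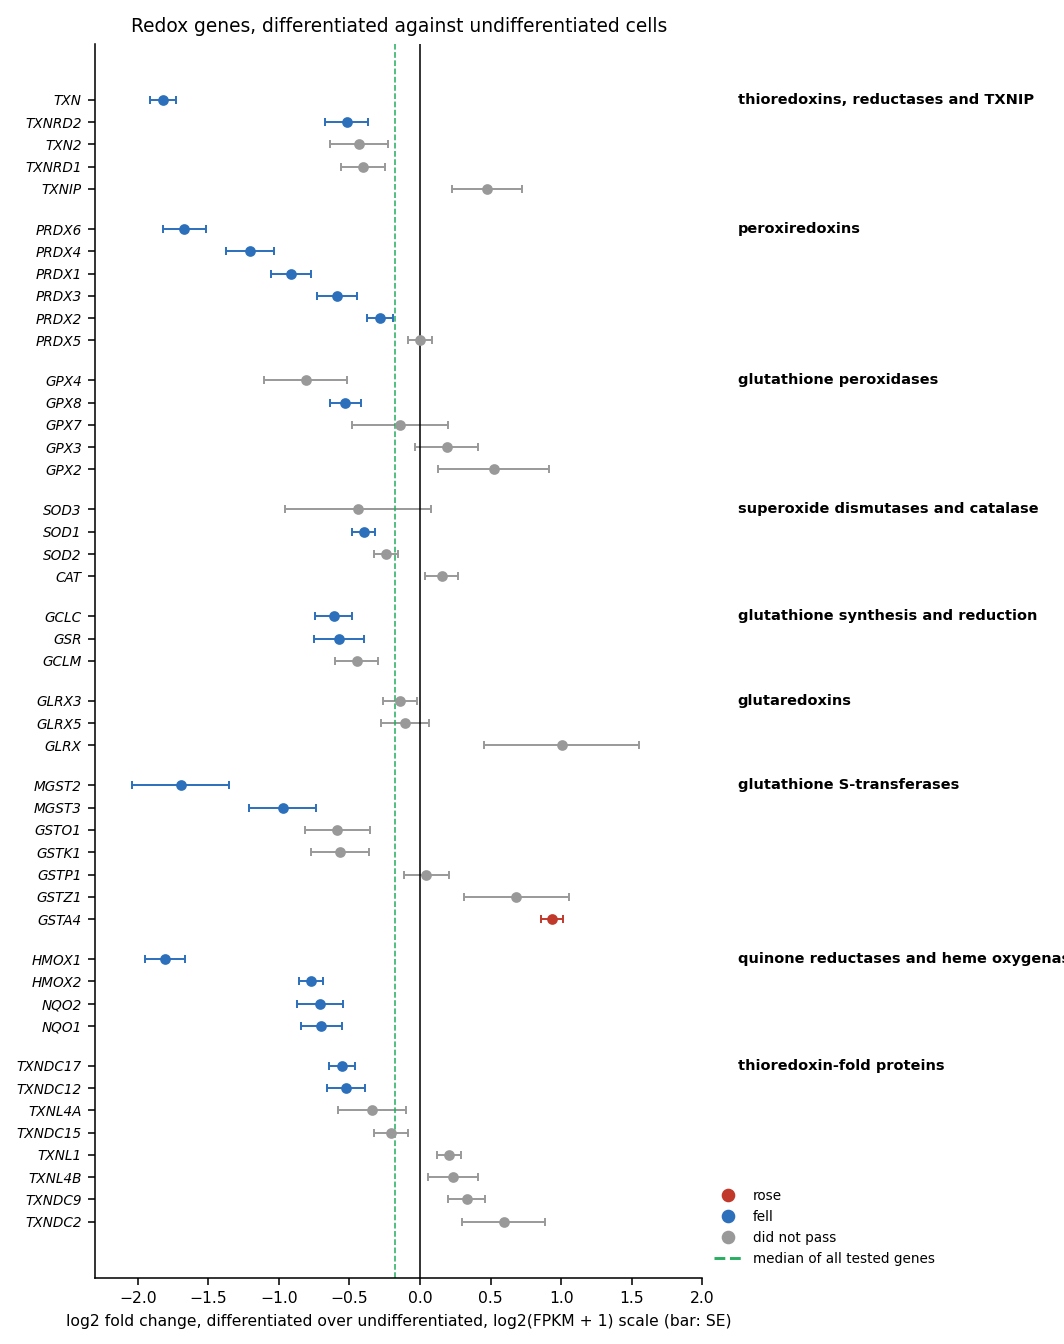
Log2 fold changes, differentiated over undifferentiated cells, of the 45 tested redox genes on the log2(FPKM + 1) scale, grouped by role; points are estimates from 4 libraries per state, bars are standard errors, and the dashed line is the median of all tested genes (-0.18). GSTA4 is the gene that rose, and TXN (-1.82), HMOX1 (-1.81) and PRDX6 (-1.67) lie far to the left with short bars.

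TXN, which encodes cytosolic thioredoxin, had the highest level of the 49 genes and was among those that fell the most, with HMOX1 and PRDX6. The order of these 3 changed with the setting: with quantile normalization the log2 fold changes were -1.43 for TXN, -1.66 for HMOX1 and -1.54 for PRDX6. The level of TXN was 340, 410, 296 and 295 FPKM in differentiated cells, against 1186, 1210, 1144 and 1163 FPKM in undifferentiated cells (where 4 values are given for a state, they are of female replicates 1 and 2 and male replicates 1 and 2, in that order). The highest differentiated library was far below the lowest undifferentiated one, and the undifferentiated libraries lay close together. The means were 335 ± 53.8 FPKM in differentiated cells and 1176 ± 28.8 FPKM in undifferentiated cells (SD, n = 4 each), a log2 fold change of -1.82 (SE 0.09, limma adjusted p = 5.9e-05). The undifferentiated mean was 3.51 times the differentiated one. TXN lies on the minus strand of chromosome 1 at 282027082 to 282076574 (ENSSSCG00000005453), and its row shares 19846 bp with that of TXNDC8 on the same strand, which was listed at 0 in all libraries.

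Thioredoxin transcripts made up a large part of the total. The levels of all 49 genes added up to 2288, 2544, 2335 and 1984 FPKM in differentiated cells and to 3489, 3533, 3670 and 3568 FPKM in undifferentiated cells. TXN made up 12.7 to 16.1% of this sum in differentiated libraries and 31.2 to 34.3% in undifferentiated ones. Without it the sums were 1953 ± 191 FPKM in differentiated cells and 2389 ± 102 FPKM in undifferentiated cells (SD, n = 4 each).

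The other parts of the thioredoxin system had smaller log2 fold changes. TXNRD1, the cytosolic reductase that recharges thioredoxin, averaged 45.7 ± 6.52 FPKM in differentiated cells and 61.2 ± 12.1 FPKM in undifferentiated cells (SD, n = 4 each; limma log2 fold change -0.40, adjusted p = 0.0774). The groups overlapped, and without undifferentiated female replicate 2, which was lowest of its state, the adjusted p was 0.0381. TXNRD2, the mitochondrial reductase, was low, at 3.53 to 4.84 FPKM in differentiated libraries and 4.58 to 7.42 FPKM in undifferentiated ones. It fell (limma log2 fold change -0.52, adjusted p = 0.0322), but missed the threshold in 11 of 16 alternative settings, with the replicate number as a block (adjusted p = 0.0722) among them. TXN2, the mitochondrial thioredoxin, averaged 28.9 ± 6.63 FPKM in differentiated cells and 38.8 ± 6.20 FPKM in undifferentiated cells (SD, n = 4 each; limma adjusted p = 0.130, and 0.0242 with the replicate block). TXNIP, which binds reduced thioredoxin and blocks it, had 34.4, 22.2, 28.5 and 31.1 FPKM in differentiated cells and 19.5, 30.0, 22.7 and 12.7 FPKM in undifferentiated cells. Its log2 fold change of 0.48 did not pass on the deposited scale (limma adjusted p = 0.158) and did under median-ratio scaling (adjusted p = 0.0478).

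Of the 6 peroxiredoxins, 5 fell on the deposited scale, and PRDX1, PRDX4 and PRDX6 still did under median-ratio scaling. PRDX6, a peroxiredoxin that also reduces phospholipid hydroperoxides and draws on glutathione, had 25.6, 24.0, 34.6 and 25.2 FPKM in differentiated cells against 97.2, 69.7, 99.5 and 89.9 FPKM in undifferentiated cells. Every differentiated library was below every undifferentiated one, and the undifferentiated mean was 3.26 times the differentiated mean (limma log2 fold change -1.67, SE 0.15, adjusted p = 0.000434). The gene lies at 127491779 to 127505079 on the plus strand of chromosome 9.

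PRDX4, the peroxiredoxin of the endoplasmic reticulum, had 45.5, 33.6, 45.8 and 32.9 FPKM in differentiated cells against 92.0, 89.8, 78.3 and 106 FPKM in undifferentiated cells. The states did not overlap, and the log2 fold change was -1.20 (SE 0.17, limma adjusted p = 0.00202). It lies at 21167784 to 21189764 on the plus strand of chromosome X. Females and males gave like estimates, -1.20 and -1.21.

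PRDX1, an abundant cytosolic peroxiredoxin, had 102, 97.7, 134 and 91.0 FPKM in differentiated cells against 203, 175, 220 and 198 FPKM in undifferentiated cells. No libraries overlapped, and male replicate 1 was the highest of each state (limma log2 fold change -0.91, SE 0.14, adjusted p = 0.00292). PRDX1 lies at 153253887 to 153265947 on the plus strand of chromosome 6 and shares 689 bp with MMACHC on the other strand, whose mean level was 9.25 FPKM. The mitochondrial PRDX3 averaged 59.0 ± 11.5 FPKM in differentiated cells and 88.0 ± 7.85 FPKM in undifferentiated cells (SD, n = 4 each; limma log2 fold change -0.59, adjusted p = 0.0152, and 0.0739 under median-ratio scaling).

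PRDX2, the peroxiredoxin with the highest level in these cells, fell only slightly. It had 280, 304, 239 and 209 FPKM in differentiated cells against 283, 322, 327 and 314 FPKM in undifferentiated cells. The states overlapped in the females, and the log2 fold change of -0.28 had a limma adjusted p of 0.0450, which 12 of 16 alternatives brought above 0.05 (replicate block 0.0564, median-ratio scaling 0.673). PRDX5, found in mitochondria, peroxisomes and cytosol, averaged 11.0 ± 1.99 FPKM in differentiated cells and 10.9 ± 0.31 FPKM in undifferentiated cells (SD, n = 4 each; limma adjusted p = 0.989).

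The make-up of the peroxiredoxin pool differed accordingly. PRDX2 supplied 51.4 ± 4.46% of the summed peroxiredoxin FPKM in differentiated cells and 39.5 ± 2.40% in undifferentiated cells, whereas PRDX6 supplied 5.51 ± 1.03% in differentiated cells and 11.3 ± 1.47% in undifferentiated cells (SD, n = 4 each, no test made). Neither pair of ranges overlapped.

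**Figure D2:**
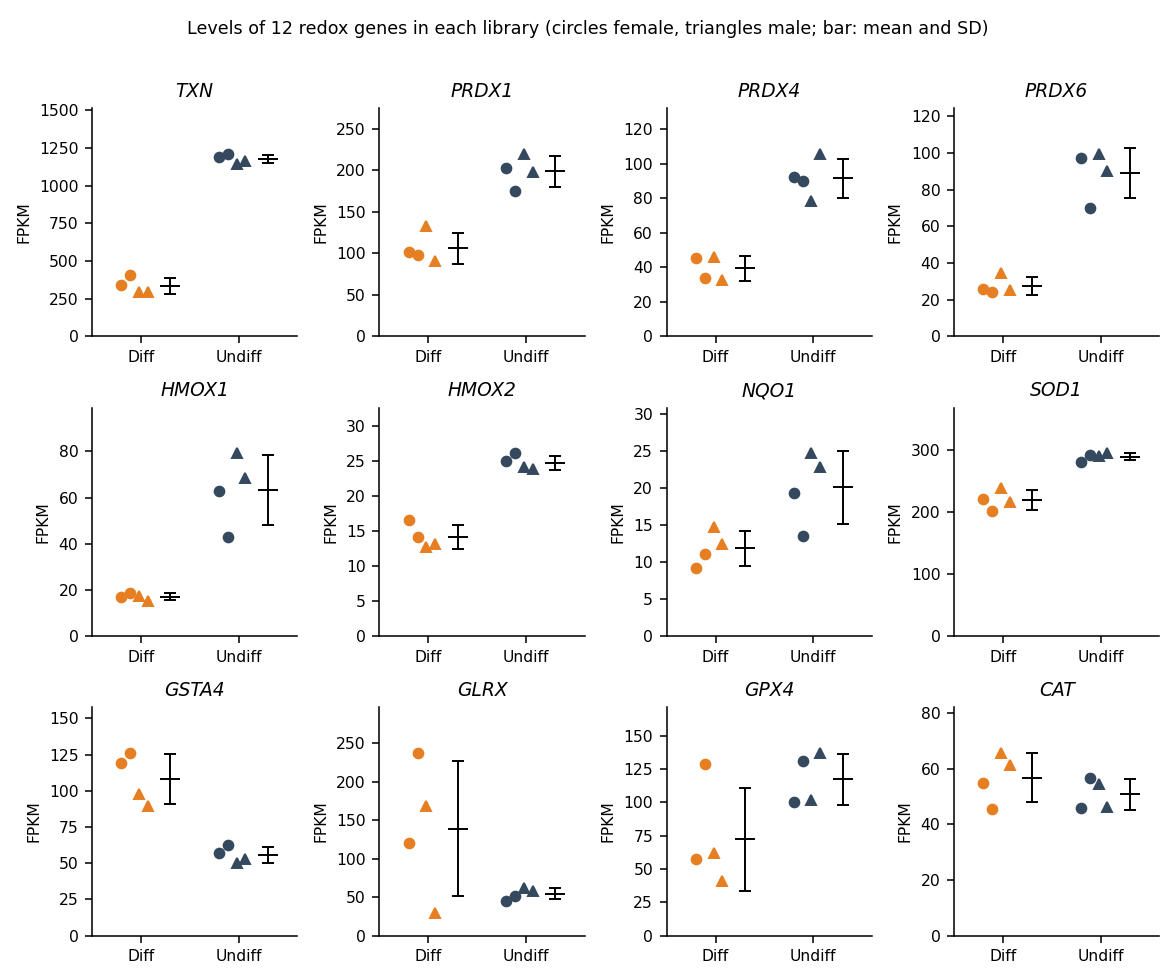
FPKM of 12 redox genes in each of the 4 differentiated (left) and 4 undifferentiated (right) libraries; circles are female and triangles male libraries, and bars give the mean and SD. TXN, PRDX1, PRDX4, PRDX6, HMOX1, HMOX2 and SOD1 separate the states with differentiated cells lower, GSTA4 separates them with differentiated cells higher, and GLRX and GPX4 spread widely among the differentiated libraries.

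Of the 7 glutathione peroxidases, 5 were tested and GPX8 fell, though not under median-ratio scaling (adjusted p = 0.0615). GPX8, a peroxidase of the endoplasmic reticulum membrane, had 24.7, 25.5, 40.2 and 36.3 FPKM in differentiated cells against 47.2, 39.7, 53.0 and 41.8 FPKM in undifferentiated cells. Within each sex the differentiated libraries were the lower, and 1 male library (40.2 FPKM) passed above an undifferentiated female one (limma log2 fold change -0.53, SE 0.11, adjusted p = 0.00995).

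GPX4, the selenoenzyme that removes lipid hydroperoxides from membranes and guards against ferroptosis, was the most abundant of the 7. GPX1 had no row under that symbol, so its level is unknown here. GPX4 had 57.3, 129, 62.2 and 41.1 FPKM in differentiated cells against 100, 131, 102 and 137 FPKM in undifferentiated cells. Female replicate 2 stood apart from the other differentiated libraries and lay within the undifferentiated range. The log2 fold change was -0.81 (SE 0.29, limma adjusted p = 0.0622), and -1.10 with an adjusted p of 0.0161 when that library was left out. GPX4 lies at 77673695 to 77675018 on the plus strand of chromosome 2.

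The remaining glutathione peroxidases were low. GPX3, the secreted plasma form, averaged 12.1 ± 3.58 FPKM in differentiated cells and 10.2 ± 1.57 FPKM in undifferentiated cells (SD, n = 4 each; limma adjusted p = 0.512). GPX7, another form of the endoplasmic reticulum, ranged from 4.52 to 8.56 FPKM in differentiated libraries and from 3.57 to 11.7 FPKM in undifferentiated ones. GPX2, known from the gut epithelium, averaged 1.05 FPKM over all libraries and was the gene just inside the level for testing. GPX6 was above 0 in 1 library only, differentiated male replicate 2 (1.85 FPKM), and GPX5, known from the epididymis, stayed at or under 0.456 FPKM.

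Of the superoxide dismutases and catalase, SOD1 fell on the deposited scale and did not pass under median-ratio scaling (adjusted p = 0.115). SOD1, the copper-zinc form of the cytosol, had 221, 202, 239 and 216 FPKM in differentiated cells against 281, 292, 290 and 294 FPKM in undifferentiated cells. The states did not overlap, and the spread was small in both (limma log2 fold change -0.40, SE 0.08, adjusted p = 0.00831). SOD2, the mitochondrial manganese form, averaged 34.1 ± 2.94 FPKM in differentiated cells and 40.5 ± 2.48 FPKM in undifferentiated cells (SD, n = 4 each; limma adjusted p = 0.0563).

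Catalase, the peroxisomal enzyme that breaks down hydrogen peroxide, was not among the genes that fell. CAT had 54.9, 45.4, 65.6 and 61.5 FPKM in differentiated cells against 45.9, 56.7, 54.4 and 46.1 FPKM in undifferentiated cells. The groups overlapped on the deposited scale (limma log2 fold change 0.15, adjusted p = 0.319), and with median-ratio scaling CAT rose by 0.38 (adjusted p = 0.0255). SOD3, the extracellular dismutase, was listed at 0, 1.18, 6.96 and 0.788 FPKM in differentiated cells and at 1.91, 1.97, 2.23 and 2.75 FPKM in undifferentiated cells. Its row lies wholly inside that of CCDC149 on the same strand, so reads of the pair may have been shared out between them.

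For glutathione itself, GCLC, the catalytic subunit of glutamate-cysteine ligase, and GSR, glutathione reductase, fell on the deposited scale and missed the threshold under median-ratio scaling (adjusted p of GCLC 0.0548). GCLC had 7.21, 8.56, 11.1 and 8.67 FPKM in differentiated cells against 13.3, 10.3, 17.2 and 15.8 FPKM in undifferentiated cells, and in each sex the differentiated libraries were the lower (limma log2 fold change -0.61, SE 0.13, adjusted p = 0.0104). GSR had 17.2, 12.1, 21.5 and 15.3 FPKM in differentiated cells against 22.5, 26.5, 28.3 and 21.8 FPKM in undifferentiated cells. The GSR ranges met without overlapping, at 21.5 and 21.8 FPKM, and its adjusted p in limma, 0.0360, was above 0.05 in 8 of 16 alternatives.

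GCLM, the modifier subunit of the ligase, had 12.3, 17.4, 17.1 and 14.8 FPKM in differentiated cells against 24.3, 19.1, 22.9 and 19.0 FPKM in undifferentiated cells. All differentiated libraries were below all undifferentiated ones, yet the log2 fold change of -0.45 just missed the threshold (SE 0.15, limma adjusted p = 0.0506), and without differentiated female replicate 2 it passed (adjusted p = 0.0317).

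The glutaredoxins, which reduce protein disulfides and glutathionylated proteins, held no gene that passed. GLRX, the cytosolic form, had 121, 237, 169 and 28.9 FPKM in differentiated cells against 45.3, 52.0, 62.1 and 57.7 FPKM in undifferentiated cells. In 3 differentiated libraries GLRX was above every undifferentiated library, and in male replicate 2 it was below all of them. The log2 fold change was 1.00 (SE 0.55, limma adjusted p = 0.177), and 1.63 with an adjusted p of 0.00756 without that library. GLRX3, a cytosolic form that carries iron-sulfur clusters, averaged 62.9 ± 7.10 FPKM in differentiated cells and 69.5 ± 7.59 FPKM in undifferentiated cells, and GLRX5, which serves iron-sulfur cluster assembly in mitochondria, 19.4 ± 4.32 FPKM in differentiated cells and 20.6 ± 1.35 FPKM in undifferentiated cells (SD, n = 4 each; limma adjusted p = 0.366 for GLRX3 and 0.632 for GLRX5).

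Among the glutathione S-transferases, GSTA4 was the gene that rose and MGST2 and MGST3 fell, all on the deposited scale and with median-ratio scaling. GSTA4 encodes an alpha-class transferase known in human and mouse for conjugating 4-hydroxynonenal, a product of lipid peroxidation, to glutathione. It had 119, 126, 97.9 and 89.8 FPKM in differentiated cells against 57.2, 62.3, 50.4 and 53.0 FPKM in undifferentiated cells. All 4 differentiated libraries were above all undifferentiated ones, and the female libraries were above the male ones within each state. The mean in differentiated cells was 1.94 times that in undifferentiated cells (limma log2 fold change 0.94, SE 0.08, adjusted p = 0.000329). GSTA4 lies at 134379974 to 134400509 on the minus strand of chromosome 7.

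GSTP1, the pi-class transferase, was the most abundant of the family in both states, with 191, 248, 134 and 201 FPKM in differentiated cells and 160, 167, 216 and 194 FPKM in undifferentiated cells. Its groups overlapped (limma log2 fold change 0.05, adjusted p = 0.832). GSTP1 supplied 58.7 ± 5.55% of the summed FPKM of the cytosolic and mitochondrial GST genes in differentiated cells and 68.7 ± 3.04% in undifferentiated cells, and GSTA4 supplied 33.4 ± 4.15% in differentiated cells and 21.1 ± 3.71% in undifferentiated cells (SD, n = 4 each, no test made).

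MGST3, a microsomal transferase and peroxidase, had 12.2, 13.5, 14.3 and 7.54 FPKM in differentiated cells against 24.0, 19.1, 20.8 and 33.0 FPKM in undifferentiated cells. The states did not overlap (limma log2 fold change -0.97, SE 0.24, adjusted p = 0.0166), and with the replicate block the adjusted p was 0.0517. MGST2, a related microsomal enzyme that can also make leukotriene C4, was listed at 0 in all differentiated libraries and in both undifferentiated female libraries, and at 15.9 and 5.53 FPKM in the undifferentiated male libraries. Its fall (limma adjusted p = 0.00821) therefore rests on that pair of libraries, no fold is given against values listed at 0, and without undifferentiated male replicate 1 its mean was too low for it to be tested.

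The other transferases did not pass. GSTO1 averaged 7.29 ± 1.87 FPKM in differentiated cells and 11.4 ± 2.48 FPKM in undifferentiated cells, with no overlap (SD, n = 4 each; limma adjusted p = 0.0771, and 0.0281 with the replicate block). The mitochondrial and peroxisomal GSTK1 averaged 5.10 ± 0.59 FPKM in differentiated cells and 8.29 ± 2.46 FPKM in undifferentiated cells (SD, n = 4 each; limma adjusted p = 0.0634). GSTZ1, which also acts in tyrosine breakdown, averaged 11.5 ± 3.18 FPKM in differentiated cells and 7.41 ± 4.61 FPKM in undifferentiated cells (SD, n = 4 each; limma adjusted p = 0.175). GSTM3, with a mean of 0.726 FPKM over all libraries, was the gene just outside the level for testing, and GSTM4 was above 0 in 1 library only.

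**Figure D3:**
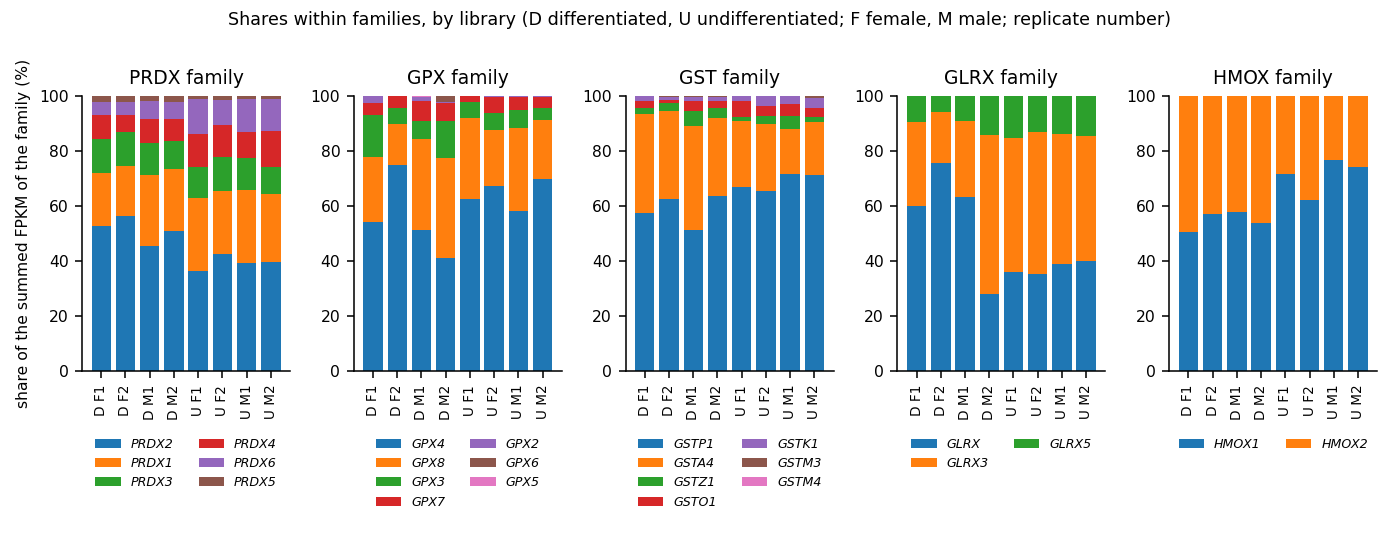
Share of each gene in the summed FPKM of its family (percent) in each library, for the PRDX, GPX, GST, GLRX and HMOX families. The GPX family has no row for GPX1. D and U are differentiated and undifferentiated, F and M female and male, with the replicate number. PRDX2 and GSTA4 take larger shares in all 4 differentiated libraries and HMOX1 a smaller one, while the GLRX share is 28.1% in differentiated male replicate 2 and reaches 75.6% in female replicate 2 of that state.

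The quinone reductases and heme oxygenases were the only role group in which every gene fell on the deposited scale, 4 of 4, and NQO2 did not pass under median-ratio scaling (adjusted p = 0.0672). HMOX1, the inducible heme oxygenase that breaks heme down to biliverdin, iron and carbon monoxide, had 16.8, 18.7, 17.3 and 15.3 FPKM in differentiated cells against 62.9, 43.0, 79.1 and 68.5 FPKM in undifferentiated cells. The differentiated libraries lay close together and far below the others, and the undifferentiated mean was 3.72 times the differentiated one (limma log2 fold change -1.81, SE 0.14, adjusted p = 0.000280). HMOX1 lies at 3546 to 9948 on the minus strand of the unplaced scaffold GL894747.1. Of the leukocyte markers, CD14 also fell (limma log2 fold change -2.24, adjusted p = 9.1e-05). The other markers were low and did not all go the same way. CD68, the highest of them, was at 0.189 to 1.23 FPKM in differentiated and 0.396 to 1.78 FPKM in undifferentiated libraries. A part of leukocytes in the level of HMOX1 was not tested. AIF1 was at 0 to 1.03 FPKM in differentiated and 0 to 0.163 FPKM in undifferentiated libraries, ITGAM at 0 to 0.570 FPKM in differentiated and 0 to 0.0683 FPKM in undifferentiated libraries, and CSF1R reached at most 0.0789 FPKM in any library.

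HMOX2, the constitutive heme oxygenase, had 16.5, 14.1, 12.7 and 13.2 FPKM in differentiated cells against 25.0, 26.1, 24.1 and 23.9 FPKM in undifferentiated cells. The states were well apart (limma log2 fold change -0.77, SE 0.09, adjusted p = 0.000846). HMOX1 supplied 54.7 ± 3.37% of the summed heme oxygenase FPKM in differentiated cells and 71.2 ± 6.30% in undifferentiated cells (SD, n = 4 each, no test made).

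NQO1, a quinone reductase that uses NADH or NADPH, had 9.16, 11.1, 14.7 and 12.4 FPKM in differentiated cells against 19.4, 13.5, 24.7 and 22.8 FPKM in undifferentiated cells. It fell (limma log2 fold change -0.70, SE 0.14, adjusted p = 0.00866), with overlap between differentiated male replicate 1 and undifferentiated female replicate 2. NQO2, a related flavoprotein, had 18.9, 23.8, 15.9 and 16.7 FPKM in differentiated cells against 31.2, 27.9, 26.1 and 40.8 FPKM in undifferentiated cells, with no overlap (limma log2 fold change -0.71, SE 0.16, adjusted p = 0.0130).

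Among the 8 other proteins with a thioredoxin fold, TXNDC17 and TXNDC12 fell and 6 did not pass. TXNDC17, a cytosolic disulfide reductase, had 41.0, 44.8, 45.5 and 46.0 FPKM in differentiated cells against 58.2, 61.8, 64.8 and 78.7 FPKM in undifferentiated cells, with no overlap (limma log2 fold change -0.55, SE 0.09, adjusted p = 0.00400). TXNDC12, of the endoplasmic reticulum, had 32.5, 25.6, 36.8 and 31.2 FPKM in differentiated cells against 58.5, 50.3, 43.2 and 33.4 FPKM in undifferentiated cells. The states overlapped in the males (limma log2 fold change -0.52, adjusted p = 0.0207, and 0.0860 under median-ratio scaling), and its row shares 930 bp with KTI12 on the same strand. TXNL1, a thioredoxin-like protein bound to the proteasome, averaged 99.3 ± 12.6 FPKM in differentiated cells and 85.6 ± 2.72 FPKM in undifferentiated cells, and TXNDC9, a factor in tubulin folding, 29.4 ± 3.64 FPKM in differentiated cells and 23.2 ± 2.56 FPKM in undifferentiated cells (SD, n = 4 each; limma adjusted p = 0.0912 for TXNL1 and 0.0823 for TXNDC9). Both passed as higher when the libraries were scaled by median ratios (adjusted p of TXNL1 0.00489, of TXNDC9 0.0132), and TXNDC9 also with the replicate block (adjusted p = 0.0484). The splicing factors TXNL4A and TXNL4B, and TXNDC15 and TXNDC2, did not pass, with log2 fold changes from -0.34 to 0.59.

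Across the roles, where a protein works in the cell was compared as well. Of 5 forms known mainly from mitochondria (SOD2, PRDX3, TXN2, TXNRD2 and GLRX5; PRDX5 and GSTK1, found in other places too, were left out and did not pass) PRDX3 and TXNRD2 fell, and their sum was 145 ± 20.8 FPKM in differentiated cells and 194 ± 14.1 FPKM in undifferentiated cells (SD, n = 4 each). Of 4 forms chosen for the secretory pathway, PRDX4, GPX8 and TXNDC12 fell and GPX7 did not pass. Their sums were 109 ± 16.4 FPKM in differentiated cells and 191 ± 7.74 FPKM in undifferentiated cells (SD, n = 4 each). The 4 are not all redox genes of the endoplasmic reticulum: the microsomal MGST2 and MGST3, which fell, were not counted. Of the selenoproteins, which need dietary selenium, 5 of 6 were tested and TXNRD2 fell. Of 8 genes known as NRF2 targets in human and mouse, TXN, PRDX1, GCLC, GSR, NQO1 and HMOX1 fell, TXNRD1 and GCLM did not pass, and their sum was 557 ± 45.6 FPKM in differentiated cells and 1580 ± 30.4 FPKM in undifferentiated cells (SD, n = 4 each), most of it TXN. The 8 are not a full list of NRF2 targets, and GSTA4, which rose, and GSTP1 and GPX2, which did not pass, are not among them. These groupings were made with the values known, so their counts carry no test, and 31.9% of all tested genes fell. Under median-ratio scaling TXN, PRDX1, NQO1 and HMOX1 of the last group still fell.

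The libraries differed among themselves within the differentiated state. Of the 45 tested genes, 23 had their highest differentiated level in male replicate 1, 13 in female replicate 2, 6 in female replicate 1 and 2 in male replicate 2, and MGST2 was listed at 0 in all 4. Male replicate 1 also had the highest cell cycle sum of the differentiated libraries, with MKI67 at 8.57 FPKM against 2.57 to 3.68 FPKM in the other 3, and the highest fibroblast sum. Without it the median log2 fold change was -0.52 for the redox genes and -0.18 for all tested genes, where it was -0.43 and -0.18 with all libraries. Without undifferentiated male replicate 1 these medians were -0.34 for the redox genes and -0.16 for all tested genes.

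The effect of differentiation was next taken within each sex, 2 libraries against 2. In females 12 redox genes passed, GSTA4 upward and 11 downward, 35.8% of all tested genes passing there; in males 15 passed, GSTA4 upward and 14 downward, with 33.0% of all genes. In both sexes 8 passed with the same sign. Of the 20 genes called over both sexes 19 had the same sign in each, MGST2 being listed at 0 in all female libraries. The 20 were called on the mean of both sexes, which favours like signs, so this count does not measure agreement between the sexes. The log2 fold change of TXN was -1.68 in females and -1.96 in males, and that of PRDX6 -1.69 in females and -1.65 in males.

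The difference of the effect between the sexes passed for 0 redox genes, with 0.0231% of all tested genes passing, and 0 passed under any alternative. An unadjusted limma p under 0.05 was found for 782 of all 12963 tested genes and for 4 of the 45 redox genes. These were MGST2, TXNDC12 (log2 fold change -0.89 in females, -0.16 in males), PRDX5 (0.23 in females, -0.22 in males) and PRDX2 (-0.05 in females, -0.52 in males), and the lowest adjusted p was 0.730. HMOX1 had a log2 fold change of -1.50 in females and -2.11 in males, a difference of 0.61 with an unadjusted limma p of 0.0765. For female against male cells, averaged over the states, 0 redox genes passed in limma, with 0.0849% of all genes passing. Here 5 of the 45 redox genes had an unadjusted limma p under 0.05, as did 1261 of all 12963 tested genes. GSTA4 was among the 5, with a log2 difference, female minus male, of 0.29 (limma adjusted p = 0.419), and both female libraries of each state were above both male ones. The others were NQO1 (-0.46), GPX8 (-0.35), GCLC (-0.37) and MGST2, and the lowest adjusted p of the 45 genes was 0.321.

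**Figure D4:**
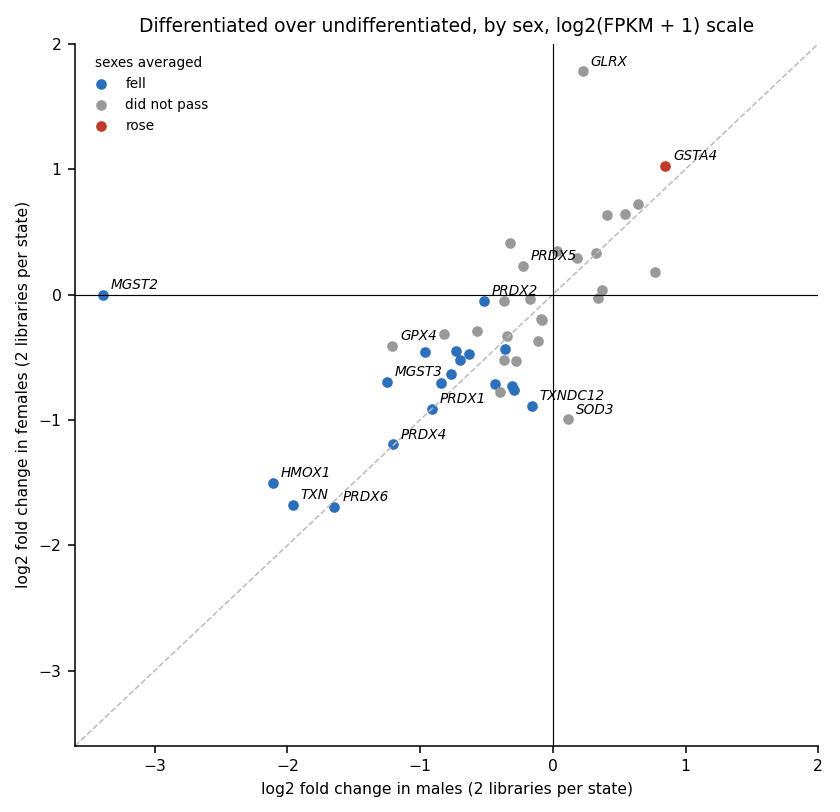
Log2 fold change, differentiated over undifferentiated cells, in females (vertical axis) and in males (horizontal axis), for the 45 tested redox genes on the log2(FPKM + 1) scale; colours give the result averaged over the sexes, and the dashed line marks equal effects. PRDX1, PRDX4 and PRDX6 lie near that line, and MGST2 lies at 0 for females because it was listed at 0 in all 4 female libraries.

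Genes that supply and regulate these enzymes were read in the same fit from 8 lists. On the deposited scale their counts stand against the 18.0% of all tested genes that rose and the 31.9% that fell. Under median-ratio scaling they stand against 3220 of all 12963 tested genes that rose and 2920 that fell. Of 12 tested genes of glutathione synthesis, import and turnover 9 fell and 0 rose (6 and 0 under median-ratio scaling), with a median log2 fold change of -1.06. CHAC1, which cleaves glutathione, averaged 5.89 ± 4.51 FPKM in differentiated cells and 33.4 ± 5.92 FPKM in undifferentiated cells (SD, n = 4 each; limma log2 fold change -2.50, adjusted p = 0.00119). SLC1A4, a transporter of neutral amino acids, averaged 3.62 ± 1.99 FPKM in differentiated cells and 14.6 ± 1.65 FPKM in undifferentiated cells (limma log2 fold change -1.89, adjusted p = 0.00820).

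The next list was drawn up for the supply of NADPH, the electron source for both systems. It held enzymes that make NADPH and others of the same pathways that do not. Of its 18 tested genes 11 fell and 1 rose (median -0.96). MTHFD1L, of mitochondrial folate metabolism, averaged 13.2 ± 5.72 FPKM in differentiated cells and 51.7 ± 1.07 FPKM in undifferentiated cells (SD, n = 4 each; limma log2 fold change -1.99, adjusted p = 0.00121). IDH2, the mitochondrial NADP-dependent isocitrate dehydrogenase, was the gene that rose, with 138 ± 15.7 FPKM in differentiated cells and 89.1 ± 5.46 FPKM in undifferentiated cells (limma log2 fold change 0.63, adjusted p = 0.00137).

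Of 10 tested genes for NRF2 and its regulators 1 rose and 2 fell (median -0.13), whereas 4 rose and 1 fell under median-ratio scaling. NFE2L1, a factor related to NRF2, rose by 0.51 (limma adjusted p = 0.00438). SQSTM1, an autophagy receptor that binds KEAP1, fell by 0.54 (limma adjusted p = 0.0149; with median-ratio scaling 0.0828). BACH2, a repressor, had a log2 fold change of -0.83 (limma adjusted p = 0.0173; with the replicate block 0.0533). NFE2L2, which encodes NRF2 itself, had a log2 fold change of -0.20 and did not pass (limma adjusted p = 0.193). Of 11 other NRF2 target genes 5 fell and 1 rose (median -0.17): FTL, the ferritin light chain, averaged 299 ± 39.7 FPKM in differentiated cells and 1564 ± 228 FPKM in undifferentiated cells (SD, n = 4 each; limma log2 fold change -2.38, adjusted p = 8.1e-05), ABCC3, an exporter of conjugates, fell by 2.29 (adjusted p = 0.000707), and AKR1B1, aldose reductase, rose by 0.96 (adjusted p = 0.000489).

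Of 8 tested sources of superoxide and hydrogen peroxide 3 fell and 0 rose (3 and 1 under median-ratio scaling; median -0.14), led by ERO1L, an oxidase of the endoplasmic reticulum (limma adjusted p = 0.000775), which fell by 1.00 on the log2 scale, and MAOA, a monoamine oxidase (-0.91, adjusted p = 0.00278). Of 14 other selenoproteins and genes of their synthesis 3 rose and 3 fell (median 0.18). VIMP, which encodes selenoprotein S, rose (log2 fold change 1.41, limma adjusted p = 0.000160), as did EEFSEC, the selenocysteine elongation factor (0.52, adjusted p = 0.0137). SEPHS2, which makes the selenium donor, fell (log2 fold change -1.15, limma adjusted p = 0.000900), as did SEPN1, whose loss causes a myopathy in humans (41.1 ± 3.65 FPKM in differentiated cells, 92.2 ± 15.3 FPKM in undifferentiated cells, SD, n = 4 each; adjusted p = 0.00119).

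Of 14 genes for other thiol reactions and methionine repair 5 rose and 6 fell (median -0.24). PTGES, a glutathione-dependent prostaglandin E synthase, averaged 123 ± 22.8 FPKM in differentiated cells and 4.74 ± 1.44 FPKM in undifferentiated cells (SD, n = 4 each; limma log2 fold change 4.44, adjusted p = 4.1e-05). MSRA, a methionine sulfoxide reductase, rose by 1.57 (limma adjusted p = 0.00197). The stress-induced sestrins SESN2 and SESN3 fell (log2 fold change -1.62, limma adjusted p = 0.00286, and -1.27, adjusted p = 0.000625). The sestrin SESN1, of the same list, rose (log2 fold change 0.97, limma adjusted p = 0.00103). Of 5 tested genes for metal binding and copper supply 3 fell and 0 rose (median -1.53). The 2 that did not pass were the copper genes CCS (log2 fold change 0.08, limma adjusted p = 0.856) and ATOX1 (0.47, adjusted p = 0.153). TFRC, the transferrin receptor, averaged 32.3 ± 7.20 FPKM in differentiated cells and 105 ± 20.6 FPKM in undifferentiated cells (SD, n = 4 each, limma log2 fold change -1.68, adjusted p = 0.00120). MT2A, a metallothionein, fell by 2.15 on the log2 scale (limma adjusted p = 0.0123). It had 9.94, 19.4, 45.1 and 28.6 FPKM in differentiated cells against 58.4, 75.7, 77.4 and 326 FPKM in undifferentiated cells, so male replicate 2 stood far above the other undifferentiated libraries.

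**Figure D5:**
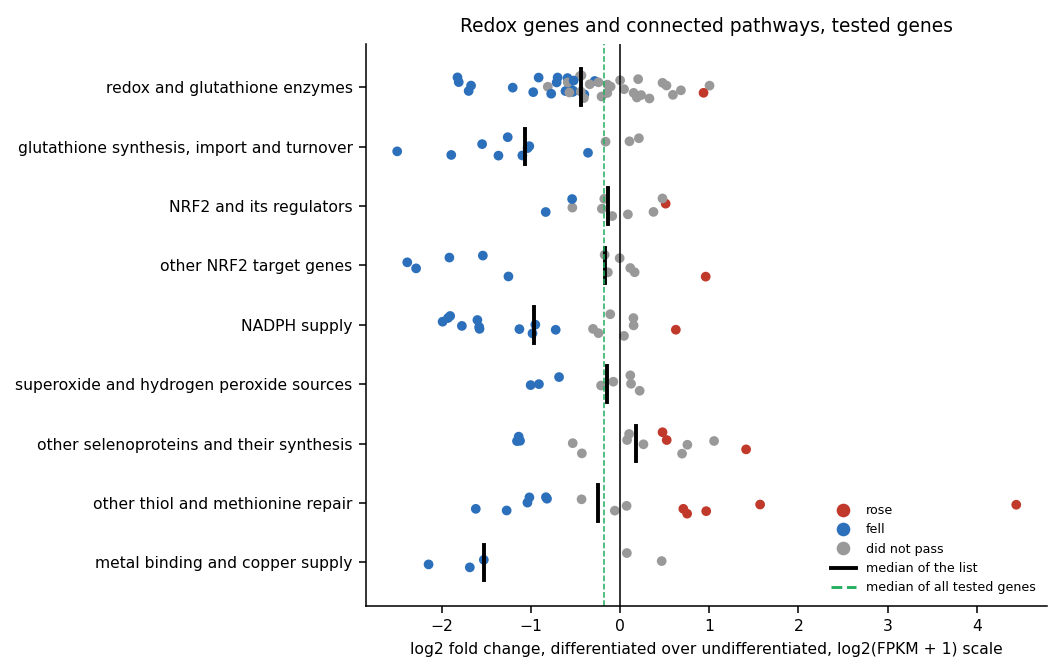
Log2 fold changes, differentiated over undifferentiated cells, of the tested redox genes and of the tested genes of 8 connected lists on the log2(FPKM + 1) scale; each point is a gene, black bars are list medians and the dashed line is the median of all tested genes (-0.18). The medians of glutathione synthesis (-1.06), NADPH supply (-0.96) and metal binding (-1.53) lie to the left of the redox genes' own (-0.43), and PTGES lies alone at 4.44.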

How the data were processed

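The deposited table gives FPKM per gene in 8 libraries. Per the submitters' processing notes, cutadapt 1.6, TopHat2 2.0.12.1 and Cufflinks 2.2.1 were used with the build Sscrofa10.2; their settings and the scaling total are not given in the sources used here. Per the labels, a low-input kit that keeps strand was used on total RNA and read as 100-bp pairs, although the molecule is listed as polyA RNA. The depth in reads is unknown, so no count test was run and no interval for counting error is given. The libraries held 11940 to 13074 genes of at least 1 FPKM, and correlated with each other at 0.74 to 0.965.

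Symbols came from the deposited table for 16274 of the 25285 genes and from a list of Ensembl identifiers for 1841, and 7170 genes had none. R 4.3.3 with limma 3.58.1 was run on log2(FPKM + 1) for the 12963 genes that averaged 1 FPKM or more, with 1 mean per sex and state and a mean-variance trend (4 residual and 2.09 prior degrees of freedom). Fold changes are on that scale, which understates the change of low genes. P-values are two-sided, with Benjamini-Hochberg adjustment across every tested gene and 0.05 as the threshold. The procedure was tested on simulated data. All redox genes could be named. From each connected list the 2 most risen and the 2 most fallen genes that passed were taken. Other genes (NFE2L2, SESN1, CCS, ATOX1, markers of cell types and states, and those overlapping a redox gene) were added with their values in view. The redox genes and the lists were chosen with earlier results of these data known.

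The settings varied were the pseudocount (0.1), the filter (none, or 5 FPKM), median-ratio scaling, quantile normalization, leaving out genes spanning under 300 bp, limma without a trend, a replicate block and leaving out each library in turn. Libraries of a sex with the same replicate number in both states deviated together from their group means (r = 0.113 in females and 0.126 in males over 12603 genes), and on that ground the numbers were taken to pair them; this rests on 1 value per sex, little above the limit of 0.1, and no label ties a number to an animal or batch. No sequences were printed, and 1 gene that the naming rule picks from the connected lists is not reported here.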

Additional observations from a re-analysis of the deposited data

Results flagged for a closer look

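The libraries of PRDX5 were ordered in opposite ways in the sexes: both differentiated female libraries were above both undifferentiated female libraries, and both differentiated male libraries were below the undifferentiated male ones. Neither effect passed within a sex (limma log2 fold change 0.23, adjusted p = 0.196 in females, and -0.22, adjusted p = 0.209 in males). The effect in females minus that in males was 0.45 on the log2 scale, with an unadjusted limma p of 0.0398 and an adjusted p of 0.808, so the difference did not pass.

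Of 90 sets of 4 libraries checked for a library far from the other 3, 2 were picked out, where chance picks about 1 in 20. TXNL4A was at 22.0 FPKM in undifferentiated male replicate 1, against 18.6, 18.7 and 19.1 FPKM in the other undifferentiated libraries. TXNL4B was at 5.13 FPKM in differentiated female replicate 1, against 2.94, 2.74 and 3.05 FPKM in the other differentiated libraries. Neither gene passed in the comparison of the states.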

How the results depend on the processing

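Of the 20 redox genes that passed, 10 kept their call under all 16 alternatives that could be run for them (14 for MGST2), 10 lost it under at least 1, and 0 reversed; 14 that had not passed did so under some alternative. The number that rose, 1 as reported, was 5 with median-ratio scaling, 3 with quantile normalization, 2 with the replicate block and 1 to 2 with a library left out; the number that fell, 19, was 10 with median-ratio scaling and 13 to 21 with a library left out, and the cause was not tested. The replicate block took the call from MGST3, PRDX2 and TXNRD2 and gave it to TXN2, GSTO1 and TXNDC9, and changed no other call of a redox gene. With a library left out, 5 to 12 genes passed in females and 6 to 14 in males, where 12 and 15 had passed; the lone library left in a group is then assumed to vary like the others. Of all tested genes, fewer passed with any library left out, over both sexes and within each. Genes that did not pass changed sign with median-ratio scaling, with log2 fold changes of 0.086 for GLRX3, 0.11 for GLRX5 (0.068 with quantile normalization), 0.058 for GPX7 and 0.013 for TXNDC15. With a library left out, the ranges that crossed 0 were -0.29 to 0.081 for GLRX5, -0.51 to 0.23 for GPX7, -0.10 to 0.19 for GSTP1, -0.032 to 0.036 for PRDX5 and -0.98 to 0.10 for SOD3. In the list of NRF2 and its regulators 3 genes passed as reported, and 5 with either scaling. Low genes such as GPX2, TXNDC2 and SOD3 rest on few fragments, and how many is unknown.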
